A study of Mus musculus with 6 samples.

Results

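Small leucine-rich proteoglycans (SLRPs) are secreted matrix proteins, and versican is a large proteoglycan that shares their pericellular space. The set described here holds 10 genes, namely Dcn, Lum, Bgn, Fmod, Ogn, Omd, Aspn, Prelp, Podn and Vcan. They were taken by gene symbol, and all 10 were found among the 21988 gene symbols of the expression table. The cells were mouse embryonic fibroblasts (MEFs) of strain C57BL/6, isolated 13.5 days into pregnancy and grown in medium with 10% serum, and their RNA was sequenced at cumulative population doubling (PD) 2, 8 and 14. The labels name no altered gene and no added agent, and give the number of doublings as the only difference between the PD2, PD8 and PD14 groups. Each group had 2 libraries, 6 in all. In every group replicate 1 was rRNA-depleted and strand-specific (called depleted below), and replicate 2 was enriched for poly(A) RNA. Replicate number and library method therefore cannot be told apart. The labels do not say whether the libraries came from separate cultures, embryos or pools, so the spread between them may be technical. The main model holds a term for library method. Its p-values therefore rest on how far passage changes differ between the 2 methods in these samples, and not on repeats of a method within a group.

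An SLRP has a curved core protein built from leucine-rich repeats, which binds collagen fibrils and sets their spacing and width. Decorin (Dcn), biglycan (Bgn) and asporin (Aspn) form one class, of which decorin and biglycan carry chondroitin or dermatan sulfate chains and asporin usually carries none. Lumican (Lum), fibromodulin (Fmod), PRELP (Prelp) and osteomodulin (Omd) form the next class, several of them with keratan sulfate. Osteoglycin (Ogn) and podocan (Podn) belong to further classes. Versican (Vcan) is a hyalectan: it binds hyaluronan at one end, carries many chondroitin sulfate chains, and loosens the matrix around moving cells. Fibroblasts are a main source of most of these proteins, and decorin and biglycan also bind growth factors such as TGF-beta.

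Expression was given as TPM, a transcript's share of all transcripts, which is scaled to transcript length and so allows levels of different genes to be compared within a library. Between 12554 and 12827 genes reached 1 TPM in a library. The values carry no read numbers, so depth and counting error are unknown. The deposited TPM summed to 1000000 in each poly(A) library and to 93.7% to 95.1% of that in depleted ones. Fibroblast markers were tested in 8 of 8 cases and summed to between 15300 and 26900 TPM. For PD14 against PD2 0 passed in limma (adjusted p from 0.193 to 0.813), with a median change of 0.30. Thy1 had the largest change of these, -0.699 ± 0.355. It had 322, 170 and 116 TPM at PD2, PD8 and PD14 in depleted and 931, 932 and 972 TPM in poly(A) libraries. The endothelial markers Pecam1, Cdh5 and Vwf and the epithelial markers Epcam and Cdh1 stayed under 1 TPM in every library. Cartilage and bone markers (6 of 10 tested; 0 of 6 passed in limma for PD14 against PD2, with adjusted p from 0.0552 to 0.841) summed to 211, 485 and 728 TPM at PD2, PD8 and PD14 in depleted libraries and to 34.9, 39.0 and 34.3 TPM in poly(A) libraries. Leukocyte markers (6 of 6 tested, 0 passed, adjusted p from 0.380 to 0.688) summed to 119, 22.6 and 30.4 TPM in depleted and 363, 674 and 630 TPM in poly(A) libraries, most of it Lyz2. Adgre1 had the largest fitted change among them, 1.08 ± 0.77, beside a list median of -0.32. Its levels were 2.6, 0.65 and 2.1 TPM in depleted and 5.7, 26.2 and 34.4 TPM in poly(A) libraries. Tendon (4 of 4 tested), epithelial (3 of 5) and muscle markers (4 of 6) had 0 called higher and 2, 2 and 3 called lower at PD14 in limma: Scx and Tnmd, Krt18 and Krt19, and Des, Acta1 and Myh3. The other tendon markers, Thbs4 and Mkx, had fitted changes of 0.57 and 0.22 and did not pass (limma adjusted p = 0.79 and 0.60). Tendon markers summed to 128, 179 and 198 TPM at PD2, PD8 and PD14 in depleted libraries. In poly(A) libraries the tendon sums were 85.9, 50.8 and 38.2 TPM. Muscle markers summed to 4.05 and 12.1 TPM at PD14, against 45.8 and 106 TPM at PD2, in depleted and poly(A) libraries. Epithelial markers summed to 21.9 and 37.1 TPM at PD2, and to 5.21 and 2.22 TPM at PD14, in depleted and poly(A) libraries. Of 5 endothelial markers 2 were tested and Kdr was called lower. The other, Tek, had a fitted change of 0.33 and did not pass (limma adjusted p = 0.58). Tek had 2.8, 5.1 and 6.3 TPM at PD2, PD8 and PD14 in depleted and 1.5, 1.1 and 1.0 TPM in poly(A) libraries. The part of any of these in the results below was not tested. In bulk RNA, fewer cells of a type and less RNA per cell cannot be told apart.

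Of the 10 genes, 7 lie in 3 clusters on mm10, as annotated by GENCODE M21. Dcn (chromosome 10, 97479609 to 97518143, plus strand) is followed by Lum (97565128 to 97572703, plus strand), with Kera and Epyc beyond them, and these 4 were the only protein-coding genes in a span of 203 kb. Prelp (chromosome 1, 133910304 to 133921414, minus strand) and Fmod (134037254 to 134048277, plus strand) are transcribed away from each other, with Optc next to Prelp, in a span of 151 kb. Aspn (chromosome 13, 49544443 to 49567565), Omd (49582462 to 49592822) and Ogn (49608046 to 49624501) stand in a row on the plus strand beside Ecm2. All 4 genes of that row lie inside Cenpp, a centromere protein gene on the other strand. Bgn (chromosome X, 73483602 to 73495933), Podn (chromosome 4, 108014791 to 108096445) and Vcan (chromosome 13, 89655312 to 89742509) stand apart from the clusters. Exons of Aspn share 7 bases with Cenpp and exons of Prelp share 350 bases with the antisense gene Gm15851. Strand is stated for depleted libraries only, so in poly(A) libraries reads of Prelp and of the antisense gene may not be told apart, and its values there are uncertain.

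RefSeq promoters (GRCm38.p6) were matched for 8 of the 10 genes. Those of the neighbours Fmod and Prelp, which had the largest changes, are shown with that of Vcan, which had the smallest. Each run is the 250 bases before the transcript start, 5′ to 3′ on the gene's strand. Capitals mark matches on either strand to the E-box CANNTG, the GC box GGGCGG and the CCAAT box. A TATA box, spelled TATAAA, was searched too and is in none of the 3 windows.
Fmod, chr1:134037004-134037253, plus strand: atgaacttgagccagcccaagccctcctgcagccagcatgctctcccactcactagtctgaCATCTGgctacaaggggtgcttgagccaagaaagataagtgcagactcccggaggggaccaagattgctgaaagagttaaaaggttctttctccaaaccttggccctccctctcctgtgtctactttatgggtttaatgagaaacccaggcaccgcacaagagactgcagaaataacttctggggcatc
Prelp, chr1:133921402-133921651, minus strand: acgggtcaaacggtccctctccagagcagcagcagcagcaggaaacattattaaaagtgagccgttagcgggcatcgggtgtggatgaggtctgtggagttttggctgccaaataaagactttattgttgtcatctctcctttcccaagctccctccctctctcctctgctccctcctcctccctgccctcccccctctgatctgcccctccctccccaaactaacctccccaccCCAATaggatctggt
Vcan, chr13:89742513-89742762, minus strand: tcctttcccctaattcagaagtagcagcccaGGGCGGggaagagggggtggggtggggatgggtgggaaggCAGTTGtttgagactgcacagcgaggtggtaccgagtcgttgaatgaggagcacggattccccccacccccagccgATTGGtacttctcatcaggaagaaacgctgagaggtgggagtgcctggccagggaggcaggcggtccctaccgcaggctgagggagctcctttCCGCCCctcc
The Fmod window holds 1 E-box, the Prelp window 1 CCAAT box, and the Vcan window 2 GC boxes, 1 E-box and 1 CCAAT box. Of 32536 promoter windows of the same length, 66.2% hold an E-box, 33.0% a GC box, 33.8% a CCAAT box and 12.3% a TATA box. Fmod and Prelp thus share none of these motifs in this window. Neither the AP-1 site TGANTCA (6.73% of windows) nor the SMAD-binding element CAGACA (17.0% of windows) was found in any of the 8 matched genes. Matches to the letters TATAAA were found for Ogn and Aspn only. All of them lie closer to the far end of the window than to the transcript start. Whether they act as TATA boxes was not tested.

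The comparison of PD14 with PD2 spans the whole passage series, in a series whose title is about senescence, the state in which cells stop dividing for good. Over that span 4 of the 10 genes rose and 0 fell: Prelp, Fmod, Lum and Dcn (limma adjusted p at most 0.05). Over all 13332 genes tested, 6.41% were called higher and 4.77% lower. All 10 genes had a positive fitted change, from 0.07 for Vcan to 3.53 for Prelp on the log2(TPM + 1) scale, with a median of 1.01 beside 0.06 for all genes tested. The change of Vcan was larger than that of 50.8% of the genes tested. How many of all genes had a positive change was not counted. The set was chosen with earlier results of these data known, so the values for all genes are no test of it. Within depleted libraries the median of the 10 was 1.67, and within poly(A) libraries it was 0.65. At an unadjusted p of 0.05, 6 of the 10 stood out, the 4 with Bgn and Ogn, as did 32.0% of all genes. Of the 10 genes, 7 were higher at PD14 within both methods, as were 38.8% of all genes tested. In 5 of the 10 both PD14 libraries lay above both PD2 libraries, which held for 22.4% of all genes.

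**Figure D1:**
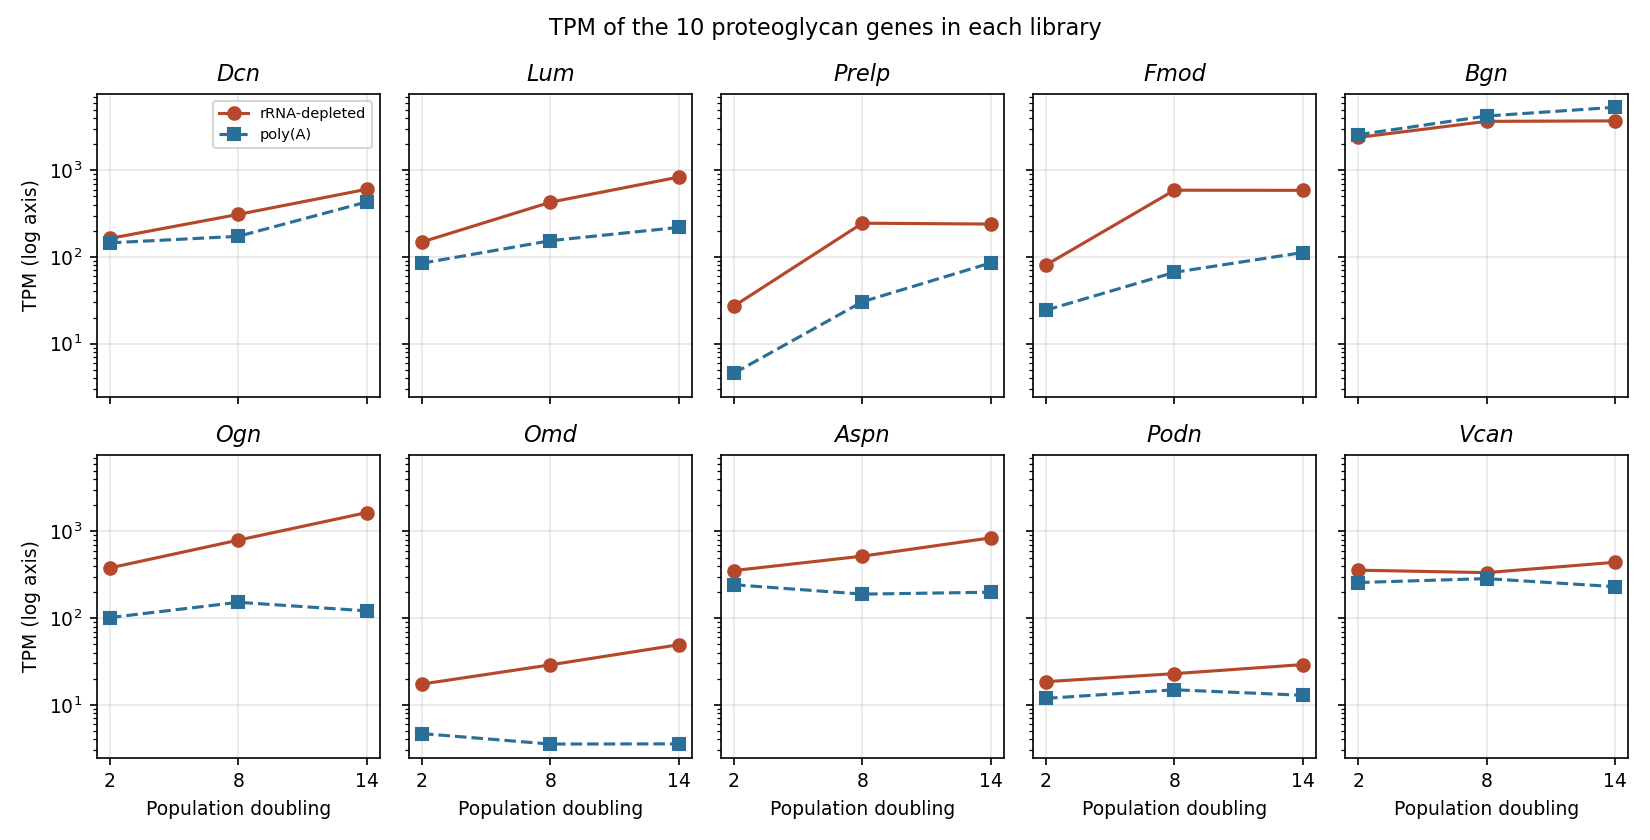
TPM (log axis) of each gene at population doublings 2, 8 and 14, with circles for depleted and squares for poly(A) libraries, 1 library per point. Prelp, Fmod, Lum and Dcn are higher at PD14 than at PD2 along both lines. Ogn, Omd and Aspn are highest at PD14 along the depleted line. Along the poly(A) line Omd and Aspn are highest at PD2, and Ogn at PD8.

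Prelp encodes a basic heparin-binding SLRP that anchors basement membrane to collagen. Depleted libraries gave it 27.2, 245 and 240 TPM at PD2, PD8 and PD14, against 4.56, 30.5 and 85.4 TPM in poly(A) libraries. Both lines were lowest at PD2, and the groups PD14 and PD2 did not overlap. The fitted change from PD2 was 3.53 ± 0.35 (SE, n = 2 libraries per group; limma adjusted p = 0.0166), which was larger than that of 99.8% of the genes tested. Fmod encodes fibromodulin, which binds type I collagen and slows fibril growth. It was listed at 80.9, 589 and 587 TPM in depleted libraries and at 24.3, 66.5 and 113 TPM in poly(A) libraries. In depleted libraries the difference was all between PD2 and PD8, while poly(A) libraries also differed between PD8 and PD14. Its fitted change was 2.50 ± 0.33 (limma adjusted p = 0.0222).

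Lum encodes lumican, a keratan sulfate proteoglycan of cornea and skin that limits fibril width. It stood at 149, 428 and 835 TPM in depleted and 84.7, 154 and 219 TPM in poly(A) libraries. The level was higher at each later passage in both methods, and the ratio of PD14 to PD2 was 5.61 in depleted and 2.59 in poly(A) libraries. Lum rose by 1.92 ± 0.27 on the log2 scale (limma adjusted p = 0.0244). Dcn encodes decorin, which coats collagen fibrils and binds TGF-beta. Its TPM of 164, 310 and 604 in depleted libraries and 146, 173 and 431 in poly(A) libraries were closer between methods than those of the other genes that rose. Dcn rose by 1.72 ± 0.18 (limma adjusted p = 0.0183), and its PD14 to PD2 ratios were 3.69 and 2.96.

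These 4 calls rest on the whole design. Without the library-method term 0 of the 10 genes passed, with adjusted p for the 4 from 0.253 to 0.561. Without either PD14 library 0 passed (adjusted p from 0.0530 to 0.0975 for these 4), and without either PD8 library 1 did, Prelp; the fitted changes of the 4 stayed between 1.47 and 4.12 over the 6 left-out libraries. Without the PD2 poly(A) library 6 passed, Ogn (1.77) and Aspn (1.09) being added. Without the PD14 or the PD2 depleted library Ogn was at 0.38 or 0.60 (adjusted p = 0.348 and 0.343), and Aspn at -0.06 or -0.13 (adjusted p = 0.928 and 0.747). With no filter on low values Dcn and Prelp passed, and Fmod and Lum did not (adjusted p = 0.0521 and 0.0543).

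**Figure D2:**
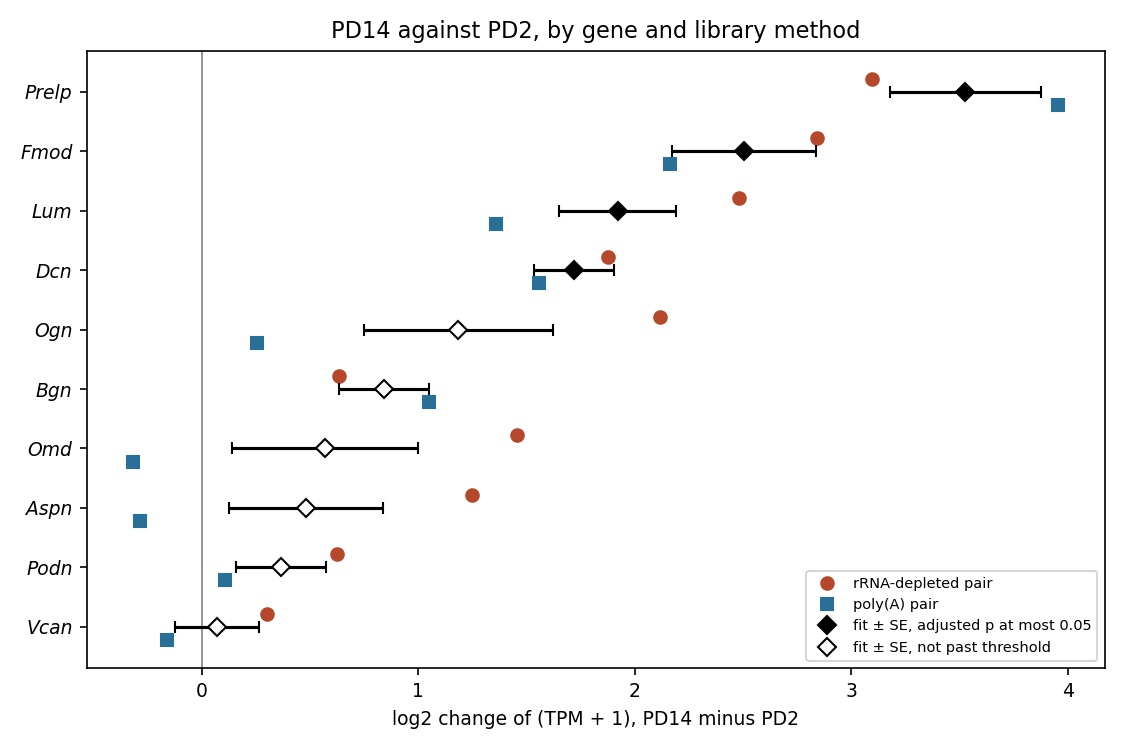
Change of log2(TPM + 1), PD14 minus PD2, for each gene: diamonds are the fitted change with its standard error (n = 2 libraries per group), filled where the adjusted p is at most 0.05, circles the depleted pair and squares the poly(A) pair. Filled diamonds are those of Prelp, Fmod, Lum and Dcn, and the squares of Omd, Aspn and Vcan lie below 0.

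Bgn encodes biglycan, which can also act as a danger signal at Toll-like receptors when released from matrix. It was the most abundant of the 10 in each of the 6 libraries, at 2391, 3665 and 3714 TPM in depleted and 2572, 4221 and 5328 TPM in poly(A) libraries. Levels were higher at each later passage in both methods, although in depleted libraries PD14 and PD8 were nearly equal. The change from PD2 to PD14 was 0.84 ± 0.21 and missed the threshold (limma adjusted p = 0.0627; 95% interval 0.31 to 1.37). With the filter set at 5 TPM it passed (adjusted p = 0.0465).

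Ogn, Omd and Aspn, the neighbours on chromosome 13, did not pass, and their values differed between depleted and poly(A) libraries. Ogn encodes osteoglycin, also called mimecan, and stood at 380, 795 and 1650 TPM at PD2, PD8 and PD14 in depleted libraries, against 102, 152 and 121 TPM in poly(A) libraries. Omd encodes osteomodulin, a keratan sulfate proteoglycan of bone, and had 17.4, 28.9 and 49.4 TPM in depleted libraries and 4.66, 3.53 and 3.55 TPM in poly(A) libraries. Aspn encodes asporin, which binds collagen and TGF-beta in cartilage, and had 354, 519 and 844 TPM against 243, 189 and 199 TPM. All 3 were thus highest at PD14 in depleted libraries, while in poly(A) libraries Omd and Aspn were highest at PD2 and Ogn at PD8. The fitted changes of PD14 against PD2 were 1.19 ± 0.44 for Ogn, 0.57 ± 0.43 for Omd and 0.48 ± 0.36 for Aspn (limma adjusted p = 0.138, 0.405 and 0.396). Ecm2, the next gene of the row and a leucine-rich matrix protein, had 2.04, 3.81 and 8.52 TPM in depleted and 0.631, 0.430 and 0.599 TPM in poly(A) libraries. Cenpp, which encloses the row, was highest at PD2 in both methods, at 10.7, 6.62 and 4.82 TPM in depleted and 7.73, 3.54 and 2.15 TPM in poly(A) libraries. Over the 6 tested cartilage and bone markers, the median PD14 to PD2 change was 1.04 in depleted and 0.0097 in poly(A) libraries, and the markers differed among themselves. In depleted libraries Comp, Col2a1, Sox9 and Alpl were higher at each later passage, Acan was highest at PD14, and Runx2 had 29.8 TPM at both PD14 and PD2. In poly(A) libraries Comp, Sox9 and Alpl were higher at PD14 than at PD2, and Col2a1, Acan and Runx2 were lower. Comp had 276 and 4.09 TPM at PD14, against 16.9 and 0.976 TPM at PD2, in depleted and poly(A) libraries, and Col2a1 had 333 and 4.16 TPM against 112 and 8.55 TPM. Their part in the Ogn, Omd and Aspn values was not tested.

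Podn and Vcan had the smallest fitted changes. Podn encodes podocan, which can restrain smooth muscle growth, and stood at 18.5, 22.9 and 29.1 TPM in depleted and 11.9, 14.9 and 12.9 TPM in poly(A) libraries. Its fitted change was 0.37 ± 0.21 (limma adjusted p = 0.280). Vcan had 358, 335 and 441 TPM in depleted libraries and 258, 286 and 231 TPM in poly(A) libraries. PD14 was thus the highest passage in depleted and the lowest in poly(A) libraries. The fitted change of Vcan was 0.07 ± 0.19 (limma adjusted p = 0.827), with a 95% interval from -0.42 to 0.56, so a change within those bounds could not be told from none.

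The set as a whole made up a larger share of the RNA measured at each later passage in both methods. Depleted libraries held 3938, 6939 and 8993 TPM of it at PD2, PD8 and PD14, and poly(A) libraries 3450, 5292 and 6744 TPM, which is 0.420%, 0.730% and 0.960% and 0.345%, 0.529% and 0.674% of all deposited TPM. The ratio of PD14 to PD2 was 2.28 in depleted and 1.96 in poly(A) libraries. Bgn made up 60.7%, 52.8% and 41.3% of the sum in depleted libraries, against 74.5%, 79.8% and 79.0% in poly(A) libraries. Without Bgn the ratios were 3.41 and 1.61. After Bgn the order of levels differed between methods. Ogn came next in each depleted library, and Vcan came next at PD2 and PD8 and Dcn at PD14 in poly(A) libraries. The lowest gene was Omd, Podn or Prelp in every library.

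**Figure D3:**
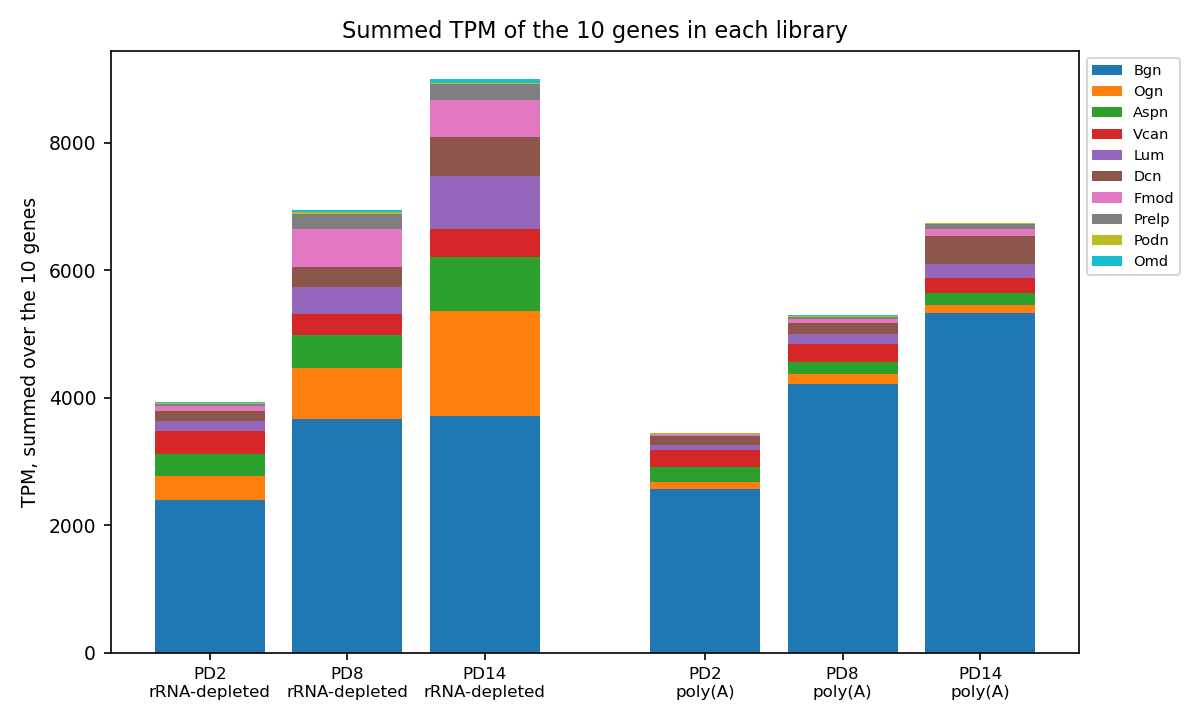
TPM of the 10 genes stacked for each library (bars start at 0), ordered PD2, PD8 and PD14 within depleted and poly(A) libraries. Summed levels are higher at each later passage in both methods (3938, 6939 and 8993 TPM, and 3450, 5292 and 6744 TPM), and the Bgn segment is the tallest in every bar.

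The early step, PD8 against PD2, asks whether the differences were already present at the middle passage. None of the 10 genes passed in limma (adjusted p from 0.0801 to 0.949), and of all genes 0.0225% were called higher and 0.0% lower. At an unadjusted p of 0.05, 5 of the 10 genes stood out (Dcn, Lum, Bgn, Fmod and Prelp), as did 20.3% of all genes. Prelp was at 2.81 ± 0.35, Fmod at 2.13 ± 0.33, Lum at 1.19 ± 0.27, Bgn at 0.67 ± 0.21 and Dcn at 0.58 ± 0.18. In 4 of the 10 (Dcn, Lum, Bgn and Prelp) both PD8 libraries lay above both PD2 libraries, as in 19.5% of all genes, and 7 of the 10 were higher at PD8 within both methods, as were 37.7% of all genes. Without the PD2 poly(A) library Lum, Fmod and Prelp passed, and without the PD2 depleted library Fmod and Prelp did (adjusted p from 0.00938 to 0.0337 for these).

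For the late step, PD14 against PD8, 0 of the 10 genes and 0 of all 13332 genes passed in limma. Dcn had the largest change of the 10, at 1.14 ± 0.18, and was the only one whose PD14 libraries both lay above both PD8 libraries, which held for 8.12% of all genes. Dcn and Lum (0.73 ± 0.27) had an unadjusted p under 0.05, as did 5.6% of all genes. For this step Prelp was at -0.03 in depleted and at 1.46 in poly(A) libraries, and Fmod at -0.01 and 0.75. Higher at PD14 than at PD8 within both methods were 5 of the 10 (Dcn, Lum, Bgn, Omd and Aspn) and 27.4% of all genes. Of the 10 genes, 3 (Dcn, Lum and Bgn) were higher at each step within both methods, as were 15.0% of all genes. A test of the late step minus the early step gave -2.10 ± 0.60 for Prelp, -1.76 ± 0.58 for Fmod and 0.55 ± 0.32 for Dcn. None of the 10 and none of all genes passed it in limma (adjusted p = 0.9996 for each), and at an unadjusted p of 0.05 it picked out 2 of the 10, Prelp and Fmod, and 4.25% of all genes. An F test over all 3 groups at once called Prelp and Dcn (limma adjusted p = 0.0415 and 0.0465) and 1.46% of all genes. It called neither without any 1 library of PD8 or PD14, nor with no filter on low values.

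Levels of most of the genes differed between depleted and poly(A) libraries. Whether this came with the method or with the replicate cannot be told apart. In depleted libraries 8 of the 10 were higher than in poly(A) libraries over the 3 groups (limma adjusted p from 0.00634 to 0.0466), and 0 were lower, with 20.9% of all genes called higher and 16.4% lower. Ogn (2.67 ± 0.36), Omd (2.63 ± 0.35), Fmod (2.40 ± 0.27) and Prelp (2.26 ± 0.28) had the largest differences. Lum was at 1.40 ± 0.22, Aspn at 1.36 ± 0.29, Podn at 0.77 ± 0.17 and Vcan at 0.54 ± 0.16. Dcn (0.50 ± 0.15, adjusted p = 0.0523) and Bgn (-0.28 ± 0.17, adjusted p = 0.241) did not pass. Without a PD8 library 3 were called, and without the PD14 library of either method 5. At an unadjusted p of 0.05 the methods differed for 9 of the 10, as for 50.7% of all genes. In 9 of the 10, all but Bgn, the depleted library was above the poly(A) library in all 3 groups (37.2% of all genes). In 5 of the 10 (Ogn, Omd, Aspn, Podn and Vcan) every depleted library lay above every poly(A) library, as in 24.7% of all genes. The same fit called 6 of 6 tested cartilage and bone markers higher in depleted libraries, with a median of 2.18 beside 1.38 for the set. Of 6 leukocyte markers it called 4 lower and 0 higher (median -1.41), and of 8 fibroblast markers 2 higher and 1 lower. Their part in the values of the set was not tested. The TPM ratio of depleted to poly(A) was not the same at each passage. For Ogn it was 3.74, 5.21 and 13.6 at PD2, PD8 and PD14, for Omd 3.73, 8.19 and 13.9, and for Aspn 1.46, 2.74 and 4.24. Prelp had ratios of 5.96, 8.05 and 2.81, so the order of passages was another one there. A test of the slope per population doubling, depleted minus poly(A), gave 0.155 ± 0.031 for Ogn, 0.148 ± 0.028 for Omd and 0.128 ± 0.021 for Aspn on the log2 scale. In limma 0 of the 10 genes (adjusted p from 0.135 to 0.825) and 0 of all genes passed that test. At an unadjusted p of 0.05 it picked out 4 of the 10, Lum, Ogn, Omd and Aspn, and 12.7% of all genes.

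**Figure D4:**
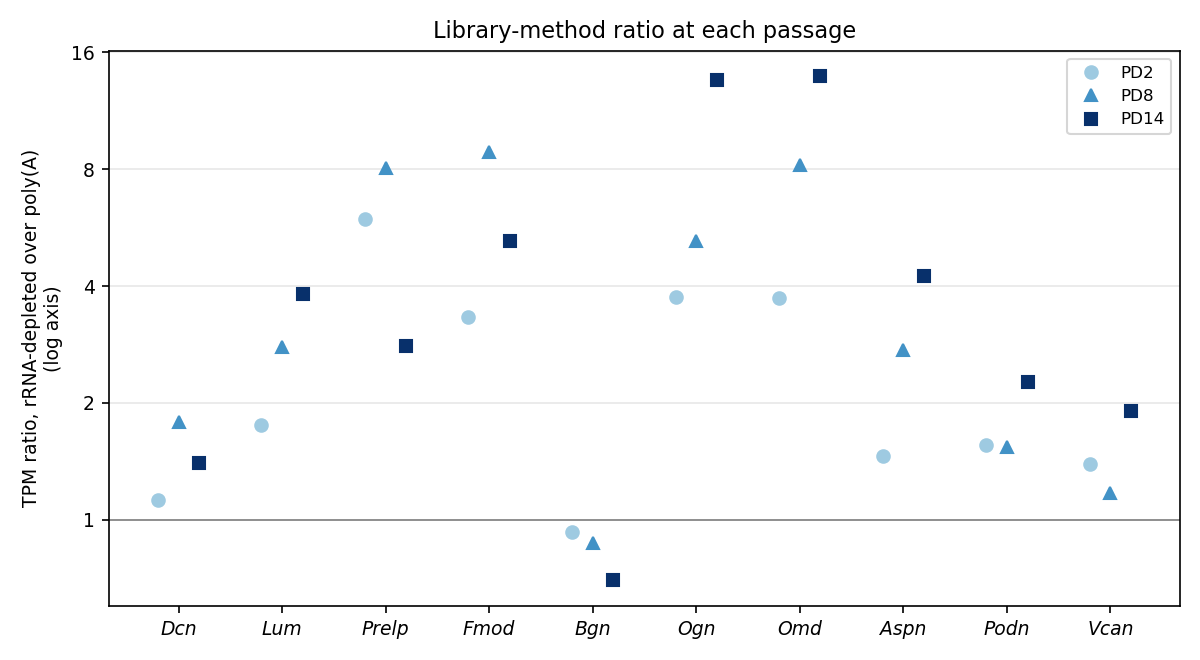
TPM ratio of the depleted over the poly(A) library (log axis) for each gene at PD2 (circles), PD8 (triangles) and PD14 (squares), 1 pair of libraries per point. All points of Bgn lie below 1, those of the other genes above it, and the ratios of Ogn and Omd reach 13.6 and 13.9 at PD14.

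Within the set, profiles centred within each library method were compared over the 6 libraries by Euclidean distance. Of 45 pairs of genes, Omd and Aspn were the closest, at 0.158 log2 units, followed by Podn and Vcan at 0.350. Dcn and Lum, neighbours on chromosome 10, were 0.771 apart. Over 9148 other genes with a mean of at least 10 TPM, Dcn was closest to Gdf10 (a BMP-family ligand; 0.316), Dpep1 (a dipeptidase; 0.364), Pi15 (0.394) and Dpt (dermatopontin, a matrix protein that binds decorin; 0.399). Those closest to Lum were Glt8d2 (0.273), Kazald1 (0.284), Vcam1 (an adhesion molecule; 0.305) and Nckap5 (0.322). Vcan was closest to Wrn (0.065), Rars2 (0.067), Cspp1 (0.078) and Uvssa (0.079), genes of DNA repair, mitochondrial translation and the spindle. These distances describe 6 libraries and carry no test.

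Other genes of proteoglycan biology were read from 7 lists. None of the 7 tested genes among 10 other SLRP genes passed for PD14 against PD2 (limma adjusted p from 0.0628 to 0.272), and their median was 0.81. Chadl, a chondroadherin-like protein of cartilage, had the largest change, 1.58 ± 0.41 (adjusted p = 0.0671). The cluster neighbours Kera and Epyc had at most 3.32 and 12.1 TPM, both at PD14 in the depleted library. Of 7 other hyalectans and link proteins 3 were tested and 0 passed (adjusted p from 0.106 to 0.496; median 0.39). Hapln1, which ties hyalectans to hyaluronan, was at 0.69 ± 0.22.

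Among 23 genes that build the linker and the chondroitin or dermatan sulfate chains, 21 were tested, 4 rose and 0 fell, with a median of 0.34. Here and in the next lists the shares of all genes called are 6.41% higher and 4.77% lower. They were the sulfotransferase gene Chst7 (1.49 ± 0.25), Csgalnact1, which starts chondroitin chains (1.01 ± 0.21), the chain-polymerizing factor Chpf (0.85 ± 0.17), and Chst14, which sulfates dermatan (0.67 ± 0.13), with limma adjusted p from 0.0317 to 0.0432. Chst14 had 72.9 and 94.9 TPM at PD14, against 47.9 and 56.5 TPM at PD2, in depleted and poly(A) libraries. Of 9 genes of keratan sulfate synthesis 6 were tested and 0 passed (adjusted p from 0.186 to 0.805; median 0.09), and Chst2 had the largest change at -0.52 ± 0.43. Of 16 fibrillar collagens and fibril partners 1 rose, Col3a1 (1.35 ± 0.19, adjusted p = 0.0244), and 0 fell, with a median of 0.36. That 1 call in 16 genes is near the share of all genes.

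Among 15 receptors and ligands that SLRPs or versican bind, 2 rose and 2 fell, beside 6.41% and 4.77% of all genes. Tlr2, a receptor for biglycan (2.10 ± 0.27), and the growth factor gene Tgfb2 (0.996 ± 0.17) rose, and Kdr, the VEGF receptor (-1.38 ± 0.24), and Cd44, the hyaluronan receptor (-1.23 ± 0.18), fell, with limma adjusted p from 0.0214 to 0.0332 and a list median of 0.45. Cd44 had 99.8 and 286 TPM at PD14, against 282 and 563 TPM at PD2. Of 14 tested proteases that process SLRPs or versican 3 rose and 0 fell, with a median of 0.46. They were Mmp2, which can cleave decorin (1.52 ± 0.15), and the versican-cleaving enzymes Adamts5 (1.09 ± 0.12) and Adamts1 (0.96 ± 0.20), with limma adjusted p from 0.0166 to 0.0459. The other Adamts genes of the list did not pass (limma adjusted p from 0.0729 to 0.941). They were Adamts9 (1.10), Adamts15 (0.40), Adamts4 (-0.03) and Adamts20 (-0.24). Over the whole list, fitted changes ran from -0.56 ± 0.16 for Tll1 to 3.32 ± 0.79 for Mmp3. Neither of these passed (limma adjusted p = 0.0889 and 0.0577). Mmp3 had 190 and 2327 TPM at PD14, against 61.9 and 69.7 TPM at PD2, in depleted and poly(A) libraries. Vcan RNA itself had a fitted value of 0.07, and cleavage of the protein was not tested.

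**Figure D5:**
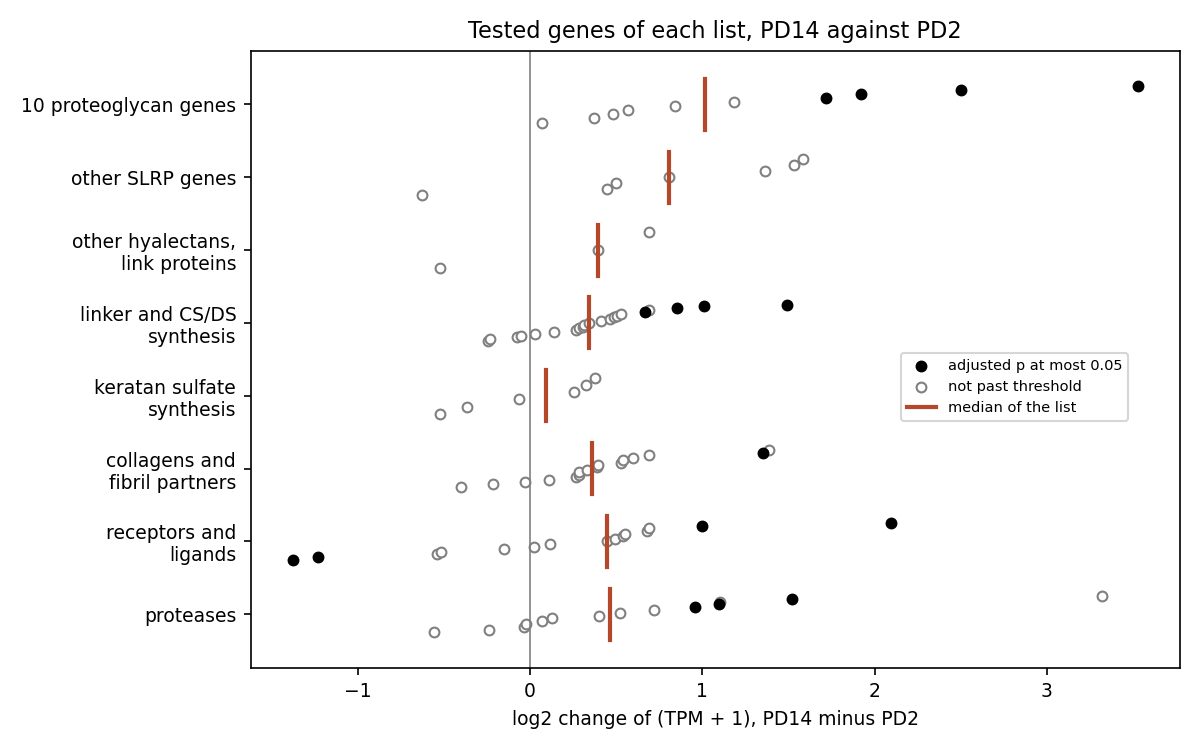
Change of log2(TPM + 1), PD14 minus PD2, for the tested genes of the proteoglycan set and of the 7 lists; filled points passed the threshold and bars are list medians. By the fit the set has a median of 1.01, and the receptors and ligands list is the only one with filled points on both sides of 0.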

How the data were processed

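Per the labels, RNA libraries of MEFs at PD2, PD8 and PD14 were made by rRNA depletion (replicate 1) or poly(A) enrichment (replicate 2). The authors deposited TPM per gene symbol. The submitters' processing notes name bcl2fastq, cutadapt 1.14, HISAT2 2.0.5, StringTie 1.3.1c and mm10, without roles; the gene annotation is not given in the sources used here. Values were fitted by limma 3.58.1 (R 4.3.3) on the log2(TPM + 1) scale, for 13332 genes with at least 1 TPM in at least 2 libraries. The added 1 understates changes of low genes. The model had group terms, library method as a block and a mean-variance trend (2 residual and 3.22 prior degrees of freedom). The block follows from the labels; deviations from group means correlated at 0.664 to 0.854 between libraries of the same method. P-values were two-sided and Benjamini-Hochberg adjusted over all genes tested, with a threshold of 0.05. The fit was run on simulated data with independent errors and the same passage change in both methods. That run required only that set changes be recovered on average. It does not bear on p-values where passage changes differ between methods. Members and lists were chosen with earlier results of these data known. All 10 members are named throughout; from each list, up to 4 genes past the threshold for PD14 against PD2 by size of change, or else the 1 with the largest change, and for likeness the 4 closest genes. Ecm2, Cenpp, Kera, Epyc and the cartilage and bone markers other than Comp were added after their values were seen. So were Thbs4, Mkx, Tek, Adamts4, Adamts9, Adamts15, Adamts20, Mmp3 and Tll1. Depth is unknown, so no counting intervals are given.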

Additional observations from a re-analysis of the deposited data

Results flagged for a closer look

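For 3 genes the PD14 to PD2 change had opposite directions in the library methods, which is what singled them out. How many of all genes had opposite directions was not counted. Of all genes tested, 38.8% were higher at PD14 within both methods. Omd was at 1.46 in depleted and -0.32 in poly(A) libraries, a difference of 1.77 on the log2 scale. Aspn was at 1.25 and -0.28, a difference of 1.53. Vcan was at 0.30 and -0.16, a difference of 0.46. As the passages are equally spaced, the estimated difference in slope per population doubling between methods follows from this difference. The slope test takes its error from departures from a straight line within each method, so it assumes a steady change over passage. It did not pass for Omd, Aspn or Vcan (limma adjusted p = 0.160, 0.135 and 0.589). At an unadjusted p of 0.05 it picked out Omd and Aspn, as it did 12.7% of all genes.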

How the results depend on the processing

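For PD14 against PD2, 4 genes of the set and 1490 genes in all passed. These counts were 0 and 0 with no replicate block, 2 and 404 with no filter on low values, and 938 in all with no mean-variance trend. Leaving out 1 library at a time gave 0 to 6 of the set and 0 to 1804 genes in all. In the fits with a left-out library its group has 1 sample, which is assumed to vary like the other groups. For PD8 against PD2, 0 of the set and 3 in all passed, against 21 in all with a pseudocount of 0.1, and 0 with a pseudocount of 5, no filter, quantile normalization, no replicate block or no trend. Left-out libraries gave 0 to 3 of the set and 0 to 641 in all. Ranges over left-out libraries were 0 to 1 gene in all for PD14 against PD8, 0 to 3 for the late minus the early step, and 3 to 9 of the set, against 8, for the library methods. Leaving out libraries for these last 2 and for the F test was chosen after seeing the data. The F test called 2 of the set and 195 in all, 0 and 0 with no filter, and 0 to 4 and 0 to 908 over left-out libraries.

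Directions turned for genes that had not passed. Within poly(A) libraries PD14 against PD2 was -0.32 for Omd, -0.28 for Aspn and -0.16 for Vcan. PD8 against PD2 was -0.32 for Omd and -0.36 for Aspn there, and for Vcan -0.0931 within depleted libraries and -0.0094 rescaled without mitochondrial genes. PD14 against PD8 was -0.33 for Ogn, -0.20 for Podn and -0.31 for Vcan within poly(A) libraries, and -0.0055 for Fmod and -0.033 for Prelp within depleted ones. Over left-out libraries, PD14 against PD2 ranged from -0.13 to 1.27 for Omd, -0.13 to 1.09 for Aspn and -0.22 to 0.36 for Vcan. PD8 against PD2 ranged from -0.51 to 0.89, -0.51 to 0.71 and -0.21 to 0.26 for these 3. PD14 against PD8 ranged from -0.0054 to 0.36 for Bgn, -0.18 to 0.92 for Fmod, -0.45 to 1.17 for Ogn, -0.25 to 1.01 for Omd, -0.155 to 0.93 for Aspn, -0.19 to 0.33 for Podn and -0.25 to 0.33 for Vcan. The cause was not tested. For PD14 against PD2 the changes of all 10 genes kept their direction under all 9 settings. Over the 6 left-out libraries those of Dcn, Lum, Fmod and Prelp, which had been picked out by passing in these same data, kept it. So did those of Bgn (0.66 to 1.03), Ogn (0.38 to 2.00) and Podn (0.11 to 0.63). Part of this was fixed in advance. The changed filters, dropping the replicate block and dropping the mean-variance trend cannot alter a gene's fitted change in this design. Leaving out either PD8 library cannot alter the change of PD14 against PD2 either. Such fits say nothing about direction. Precision is limited by 2 libraries per group and an unknown depth.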
